A study of Rattus norvegicus with 4 samples.

Results

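The genes described here encode the nuclear subunits of the mitochondrial respiratory chain and of ATP synthase, measured in cultured rat granulosa cells. They were taken as every gene whose annotated symbol begins with Nduf, Uqcr, Cox4 to Cox8, Atp5, Sdha, Sdhb, Sdhc or Sdhd, on a probe set annotated with exactly 1 symbol. The rule gave 90 of the 14217 genes named on the array, and each gene was read by its probe set of highest mean signal over the 4 arrays. They comprised 34 subunits of complex I, 4 of complex II, 7 of complex III, 17 of complex IV with their tissue isoforms, and 15 of complex V. The other members were 12 assembly or regulatory proteins whose symbols share these prefixes and 1 pseudogene.

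Granulosa cells, the somatic cells that surround the oocyte and make estradiol, came from immature female Sprague-Dawley rats aged 23 to 25 days that had received estradiol. Every culture was infected with an adenovirus for 4 h and then kept for 24 h with or without follicle-stimulating hormone (FSH, 100 ng/ml), the pituitary hormone that drives follicle growth. GFP vehicle and GFP FSH carried green fluorescent protein as the control vector, FOXOA3 FSH carried constitutively active FOXO1, and FOXOA3-mDBD FSH carried the same factor with a mutated DNA-binding domain. Each group was measured on 1 array, so no difference below has a replicate check, no p-value is given, and every fold describes a pair of arrays. No vehicle culture carried either FOXO1 vector, and neither the pooling of animals or wells nor the amount of virus is given in the labels.

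The respiratory chain passes electrons from NADH, through complex I, and from succinate, through complex II, to ubiquinone, then through complex III and cytochrome c to complex IV, where oxygen is reduced. Complexes I, III and IV pump protons across the inner mitochondrial membrane, and complex V, the ATP synthase, uses the returning protons to make ATP. Granulosa cells that turn to steroid synthesis rely on mitochondria for a further task, since cholesterol side-chain cleavage takes place on the inner membrane.

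Promoters of 4 members are shown, because these genes are among the extremes of the results that follow. Uqcrc2 and Ndufs1 are the core subunits of complexes III and I whose signal differed most between GFP FSH and GFP vehicle, Ndufa5 was the member with the highest ratio on FOXOA3-mDBD FSH, and Ndufb10 was among the lowest there. Each sequence holds the 150 bases before the RefSeq transcript start on the gene's own strand, in build GRCr8. Capitals mark matches, on either strand, to the 4 motifs described with the promoter counts.
The stretches are chr1:184599090-184599239 on the plus strand for Uqcrc2, chr9:72073606-72073755 on the minus strand for Ndufs1, chr4:53971236-53971385 on the minus strand for Ndufa5, and chr10:14255967-14256116 on the minus strand for Ndufb10.
Uqcrc2: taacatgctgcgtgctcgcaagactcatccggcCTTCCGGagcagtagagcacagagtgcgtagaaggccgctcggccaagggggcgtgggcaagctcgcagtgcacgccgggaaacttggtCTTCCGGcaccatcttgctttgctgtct
Ndufs1: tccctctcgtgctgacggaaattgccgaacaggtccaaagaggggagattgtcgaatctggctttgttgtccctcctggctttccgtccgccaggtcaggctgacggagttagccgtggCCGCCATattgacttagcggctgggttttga
Ndufa5: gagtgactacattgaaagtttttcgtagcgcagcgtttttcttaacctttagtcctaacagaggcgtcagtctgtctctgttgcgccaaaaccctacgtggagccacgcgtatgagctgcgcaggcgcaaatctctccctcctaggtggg
Ndufb10: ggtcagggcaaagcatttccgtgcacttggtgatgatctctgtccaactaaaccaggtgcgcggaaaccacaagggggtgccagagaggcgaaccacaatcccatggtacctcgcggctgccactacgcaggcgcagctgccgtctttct
Uqcrc2 holds 2 matches to the ETS motif and Ndufs1 holds 1 match to the YY1 motif in this stretch, while Ndufa5 and Ndufb10 hold none of the 4 motifs. Atp5mg, the member with the highest ratio of GFP FSH to GFP vehicle, is not shown and holds none of them in the same stretch. Its longer window, described with the promoter counts, holds 1 NRF1 and 1 ETS match.

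The deposited MAS5 signals had a 2% trimmed mean of 500.1 to 500.2 on every array. A signal floor was set at 100.5, the median of all probe sets, and between 47.9% and 52.8% of probe sets lay above it. The bacterial poly-A spike transcripts that are added before labelling had a geometric mean of 21.4 for GFP vehicle and 22.6 for FOXOA3 FSH, but 394.6 for GFP FSH and 539.4 for the mutant vector with FSH. The 3' to 5' signal ratio of beta-actin was 5.15 on GFP vehicle and 9.79 to 12.0 on the 3 FSH arrays. Of 11 granulosa markers fixed for this work, 10 were on the array and 9 or 10 were above the floor on each array. Their signals summed to 104360 on GFP FSH, against 32317 for GFP vehicle, 40884 for active FOXO1 and 26027 for its mutant. Of these 10, 7 were at least 2-fold higher on GFP FSH than on GFP vehicle, where 6.84% of all measured genes were. Such a sum does not tell cell number from signal per cell. For 12 theca, stroma and smooth muscle markers the sums were 15314 on GFP FSH, against 26909, 30301 and 16324 on the other arrays in the same order. Between 5 and 8 of the 12 were above the floor on each array. Leukocyte markers summed to between 1568 and 4264, with 2 to 4 of 7 above the floor. Endothelial markers summed to between 306.1 and 587.2, with 1 or 2 of 5 above the floor. Oocyte markers summed to between 442.7 and 1200.0, with 2 or 3 of 5 above the floor.

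Respiratory chain genes were among the brightest on the arrays. Of the 90 members, 82 were above the floor on all 4 arrays, 7 were below it on all, and the pseudogene Cox6c-ps1 was above it on some. The median member stood at the 89.6 percentile of mean signal among all genes, and 44 members were in the top 10%. Such ranks compare probe sets and do not give relative transcript numbers. Of the 82, 48 stayed within 2-fold in all 5 comparisons made here. The same count over all genes is not given, so the 48 do not show whether members were steadier than other genes. The median ratio of a member's highest to its lowest signal was 1.91.

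**Figure D1:**
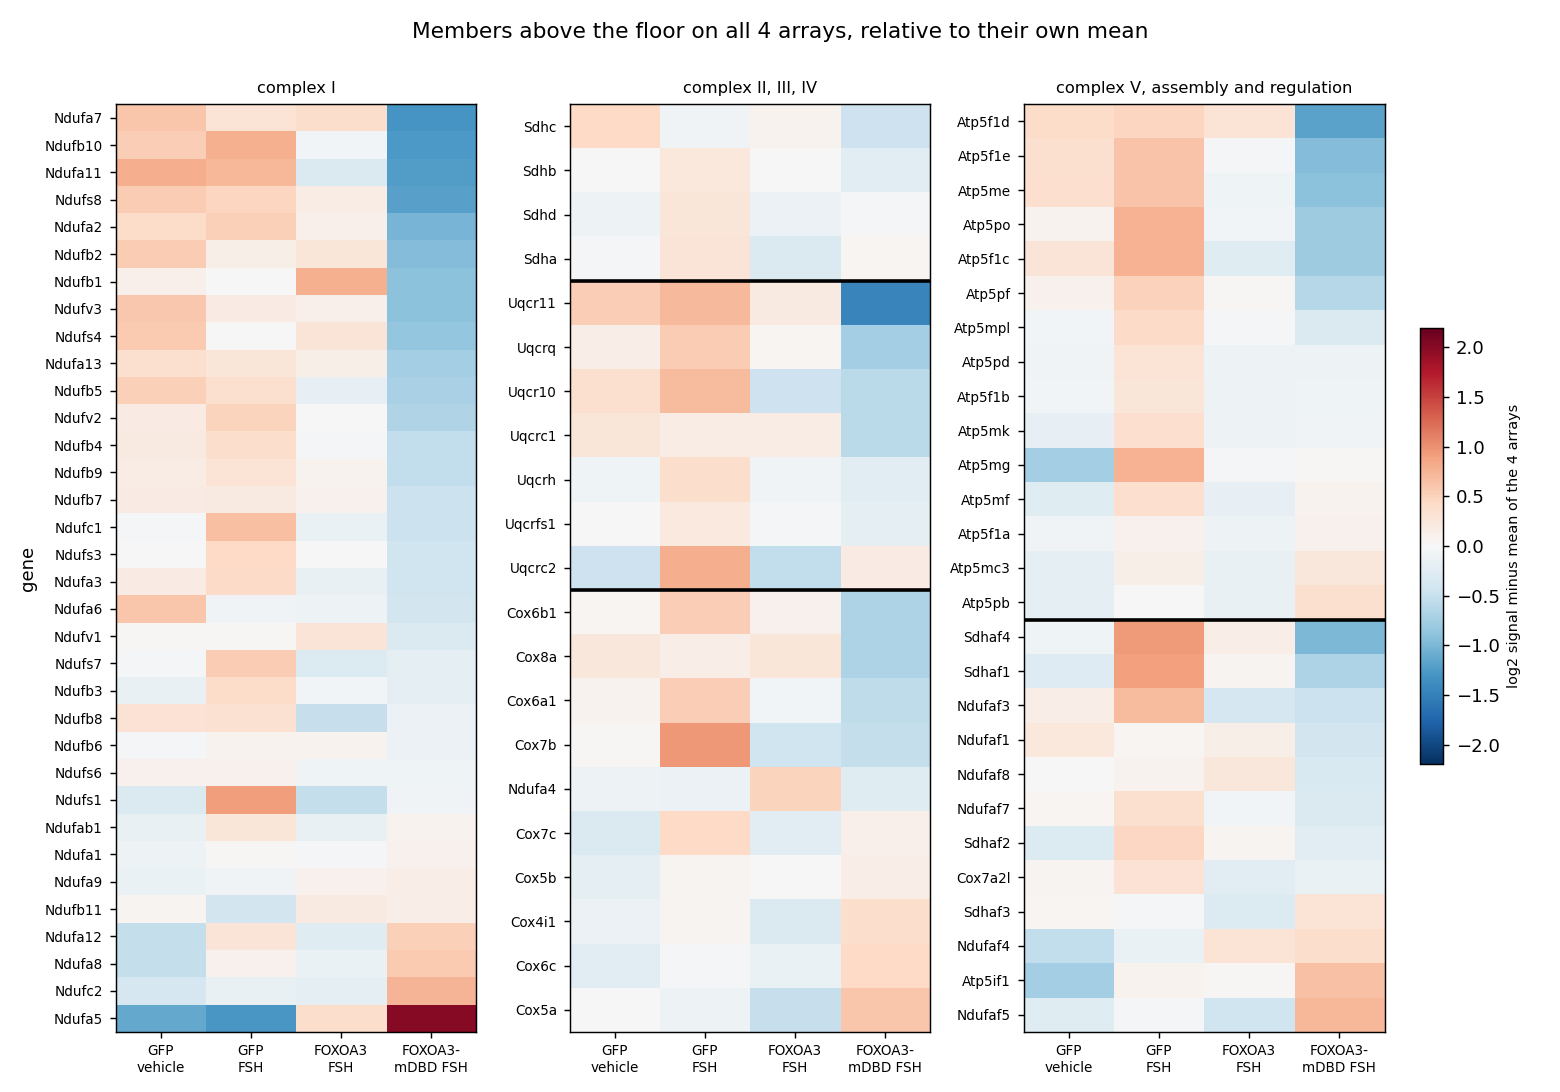
Signals of the 82 members above the floor on all arrays, with a row for each gene in its complex and a column for each array. Colour gives the log2 signal minus the gene's own mean over the 4 arrays, with red above and blue below that mean. GFP FSH was the highest array for 47 members and FOXOA3-mDBD FSH the lowest for 49.

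The 4 arrays did not share the extremes evenly. GFP FSH carried the highest signal for 47 of the 82 members (57.3%), against 30.0% of the 8114 genes that were above the floor on all arrays. It carried the lowest signal for 2 members (2.44%), against 21.1% of all such genes. FOXOA3-mDBD FSH carried the lowest signal for 49 members (59.8%, against 43.7% of all genes) and the highest for 16 (19.5%, against 27.1%). FOXOA3 FSH was highest for 6 members (7.32%, against 18.2%) and GFP vehicle for 13 (15.9%, against 24.7%). In RNA from whole cultures, fewer cells of a type and less RNA per cell cannot be told apart.

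The first comparison asked how the hormone alone bore on these genes. With FSH under the control vector, 61 of 83 measured members had a higher signal than on GFP vehicle, most of them by little. Only 5 members (6.02%) were at least 2-fold higher, where 6.84% of the 9578 measured genes were, and 0 were at least 2-fold lower, where 11.1% of all measured genes were. Those 5 were Ndufs1, Uqcrc2, Atp5mg and the assembly factors Sdhaf1 and Sdhaf4. The median log2 ratio of the members was 0.24 and their interquartile range 0.48, while all measured genes had a median of -0.00 and a range of 0.92. The member median was 0.10 after quantile normalization and 0.06 after loess correction, where all genes stood at 0.05 and 0.01. The summed granulosa marker signal was higher on GFP FSH too, and the arrays differ in spike state. The part of either in these ratios was not tested.

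By complex, the median log2 ratio with FSH was 0.09 for complex I, 0.27 for complex II, 0.34 for complex III, 0.23 for complex IV, 0.37 for complex V and 0.35 for the assembly and regulatory proteins. As deposited, all 15 complex V members had ratios above 0, from 0.06 to 1.51, where 4771 of the 9578 measured genes had. The complex I median changed sign under quantile normalization (-0.01) and loess correction (-0.06), and the complex V median stayed positive, at 0.18 and 0.14.

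The second comparison set active FOXO1 against the control vector, both with FSH. On FOXOA3 FSH, 68 of 83 measured members were lower than on GFP FSH, with a median log2 ratio of -0.40, while the median of all 9941 measured genes was 0.04. At least 2-fold lower were 7 members (8.43%), where 6.99% of all measured genes were. These were Ndufa11, Ndufs1, Uqcr10, Uqcrc2, Cox7b, Atp5f1c and Ndufaf3. Only Ndufa5 (1.20% of members) was at least 2-fold higher, against 11.1% of all measured genes. As deposited, every one of the 15 complex V members and 7 complex III members had a ratio below 0, where 4728 of all 9941 genes had. The complex V median went from -0.48 to -0.19 after quantile normalization and -0.14 after loess correction. That of complex III went from -0.51 to -0.35 and -0.30. The member median was -0.22 after quantile normalization and -0.16 after loess correction, and Atp5f1c was under 2-fold in both. This pair also differs in poly-A spike signal (22.6 against 394.6), in summed granulosa marker signal (40884 against 104360) and in summed theca, stroma and smooth muscle marker signal (30301 against 15314), whose part was not tested.

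The third comparison set the DNA-binding mutant against the control vector, both with FSH, and here the members differed most. On FOXOA3-mDBD FSH, 26 of 82 measured members (31.7%) were at least 2-fold lower than on GFP FSH, where 19.1% of the 9748 measured genes were. Again only Ndufa5 (1.22%) was at least 2-fold higher, against 12.5% of all measured genes. The median log2 ratio of the members was -0.65, with an interquartile range of 0.91, and that of all measured genes was -0.16 with a range of 1.29. Relative to the median of all genes, 17 of 82 members were at least 2-fold lower, where 1465 of the 9748 genes were. The member median was then -0.48. The 9 members that lost the call were Atp5pf, Cox6a1, Ndufa13, Ndufaf3, Ndufb2, Ndufb5, Ndufc1, Ndufv2 and Ndufv3. By complex the medians were -0.84 for complex I, -0.77 for complex III, -0.74 for complex V, -0.46 for the assembly and regulatory proteins, -0.34 for complex II and -0.23 for complex IV. After loess correction they were -0.71, -0.74, -0.40, -0.25, -0.30 and -0.18 in the same order. Summed granulosa marker signal was 26027 against 104360 in this pair, and its part was not tested.

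**Figure D2:**
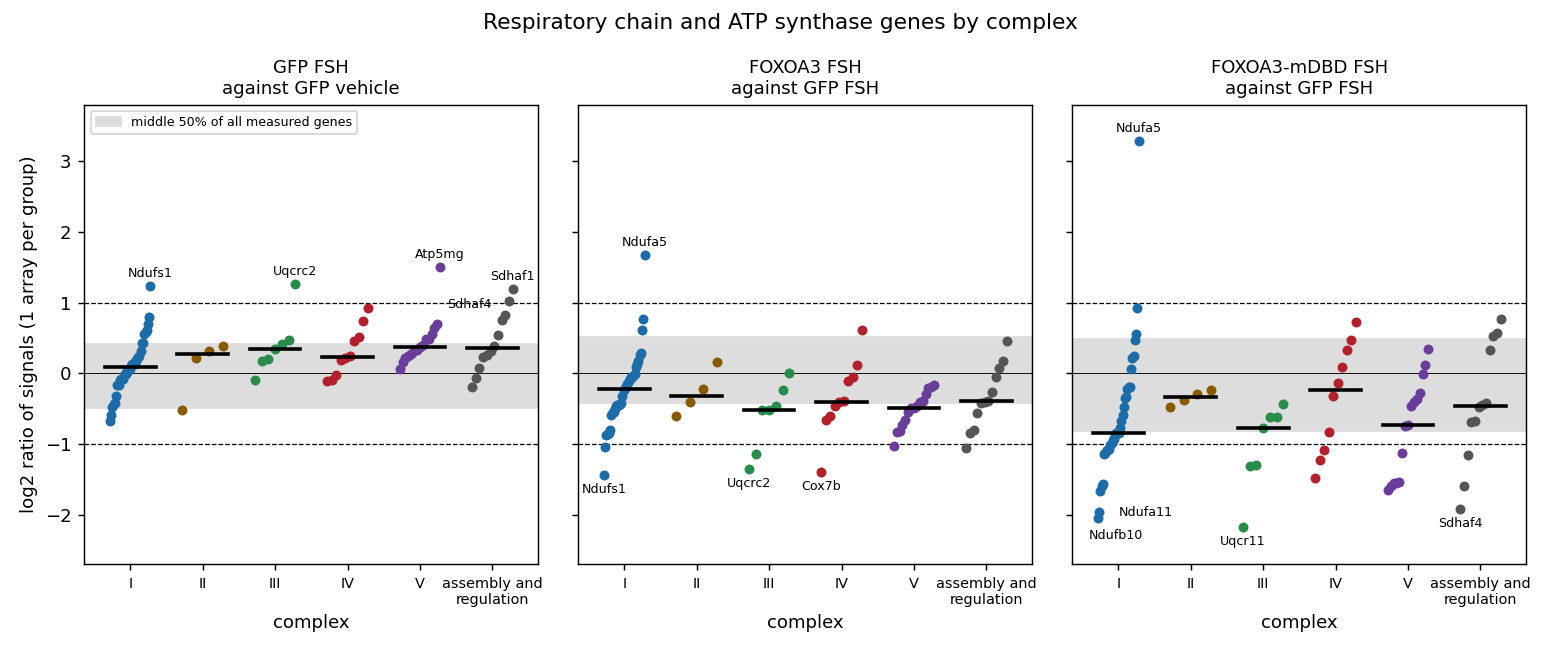
Log2 ratios of the measured members for FSH against vehicle under the GFP vector and for FOXOA3 and FOXOA3-mDBD each against GFP with FSH, with a point for each gene and a black bar for the median of its complex. The grey band spans the middle 50% of all measured genes and dashed lines mark a fold of 2. As deposited, complex V points all lay above 0 with FSH and all below 0 with FOXOA3, and the spread was widest with FOXOA3-mDBD.

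These 3 comparisons share the GFP FSH array, so their member values are set side by side and their likeness is not a result. Active FOXO1 against its mutant leaves that array out. There 11 of 83 members (13.3%) were at least 2-fold higher on FOXOA3 FSH, where 19% of the 10092 measured genes were, and 3 (3.61%) were lower, where 9.24% of all genes were. The higher members were Ndufa2, Ndufa7, Ndufb1, Ndufb10, Ndufb2, Ndufs4, Ndufs8, Ndufv3, Uqcr11, Atp5f1d and Sdhaf4, and the lower ones Ndufa5, Cox5a and Ndufaf5. The median log2 ratio was 0.25, against 0.21 for all genes. It was 0.05 when the ratios were centred on all genes, 0.30 after quantile normalization (all genes 0.12) and 0.30 after loess correction (all genes 0.01). By complex the order depended on the scaling. Complex I had a median of 0.38, and 0.17 to 0.42 under the other scalings. Complex III had a median of 0.20 (-0.01 when centred and 0.52 after loess correction), complex V of 0.01 (-0.20 and 0.36) and complex II of 0.07 (-0.14 and 0.28). Of the 11 higher members, Ndufb10, Ndufs4, Ndufv3 and Sdhaf4 were under 2-fold after quantile normalization, centring and loess correction alike, and Ndufa2 after centring and loess correction. Cox8a and Ndufa4 passed 2-fold under quantile normalization and loess correction.

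FOXOA3 FSH and GFP vehicle differ in hormone and vector and have the same spike state. Between them the members were closest, with a median log2 ratio of -0.08 and an interquartile range of 0.39 over 83 members. All measured genes had their narrowest range in this pair too, 0.61, with a median of 0.01. Ndufa5 was the only member at least 2-fold higher (1.20%, against 5.32% of the 9904 measured genes) and Ndufa11 the only member at least 2-fold lower (1.20%, against 4.01%). This pair shares no array with FOXOA3-mDBD FSH against GFP FSH, the other pair of like spike state. Across the 82 members measured in both, Pearson's r was 0.56 and Spearman's rho 0.49, with 61 of the same sign, and without Ndufa5 they were 0.43 and 0.47. Across 9245 genes the values were 0.27 and 0.28, with 5629 of the same sign. Ratios were below 0 for 65 of 82 members in the mutant pair and for 52 of 83 between FOXOA3 FSH and GFP vehicle. For all measured genes these numbers were 5567 of 9748 and 4839 of 9904. The count of like signs depends on these shares. The other pair with no shared array, GFP FSH against GFP vehicle and the mutant against FOXOA3, both cross the spike state. There r was 0.29 and rho 0.33 over 83 members, with 45 of the same sign. Over 9263 genes they were 0.26 and 0.30, with 5560 of the same sign. These correlations are across genes, which are not independent replicates, and are given as a description.

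**Figure D3:**
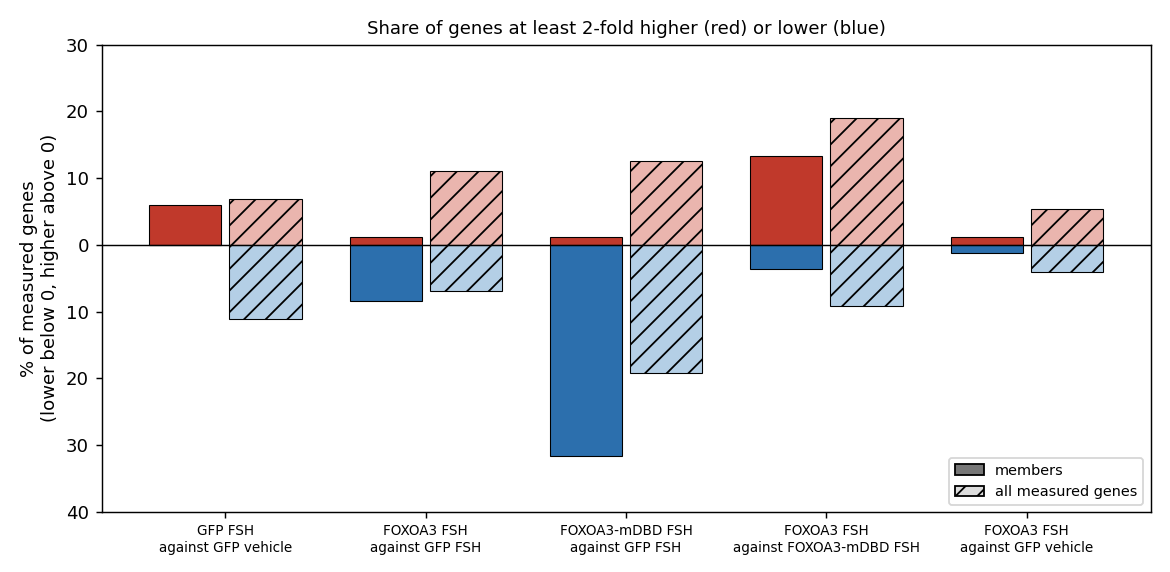
Share of measured members and of all measured genes that were at least 2-fold higher (red) or lower (blue) in each of the 5 comparisons, in percent. Members exceeded all genes most in the lower share of FOXOA3-mDBD FSH against GFP FSH, 31.7% against 19.1%.

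Complex I takes electrons from NADH through a chain of iron-sulfur clusters in its peripheral arm, and its membrane arm pumps protons. In what follows the signals of a gene are given in a fixed order, GFP vehicle first, then GFP FSH, then FOXOA3 FSH and last FOXOA3-mDBD FSH, which is also called the mutant array. Ndufs1, the largest core subunit and the holder of several iron-sulfur clusters, had signals of 1457, 3448, 1276 and 1738. GFP FSH stood above the other 3 arrays, being 2.37-fold higher than GFP vehicle, while FOXOA3 FSH was 2.70-fold and FOXOA3-mDBD FSH 1.98-fold lower than GFP FSH. Ndufs8, a core subunit whose clusters pass electrons toward ubiquinone, had signals of 2087.5, 1968, 1582 and 621, so that only the mutant array stood apart, 3.17-fold below GFP FSH. Ndufv2, a core iron-sulfur subunit next to the flavin-bearing Ndufv1, had signals of 4208, 5222, 3686 and 2365 and was 2.21-fold lower on the mutant array than on GFP FSH. All 6 core subunits among the members (Ndufs1, Ndufs3, Ndufs7, Ndufs8, Ndufv1 and Ndufv2) had ratios below 0 in that comparison, with a median log2 ratio of -0.93. The 28 accessory subunits among the members had a median of -0.76, with 21 below 0, 9 at least 2-fold lower and 1 at least 2-fold higher. Of all 9748 measured genes, 5567 had ratios below 0, 19.1% were at least 2-fold lower and 12.5% at least 2-fold higher.

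The accessory subunit that departed most from the rest was Ndufa5, which sits in the arm that reaches ubiquinone. Its signals were 552, 495, 1579.8 and 4841. Both FOXO1 arrays were high and both GFP arrays low, with FOXOA3-mDBD FSH 9.78-fold and FOXOA3 FSH 3.19-fold above GFP FSH. The mutant array was also 3.06-fold above FOXOA3 FSH, which was itself 2.86-fold above GFP vehicle. The next highest ratio in complex I on the mutant array was that of Ndufc2, a membrane arm subunit, whose signals were 4174, 4815.5, 4669 and 9119.6. Its 3 other arrays were alike and the mutant array was 1.89-fold above GFP FSH.

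Ndufa11, a membrane arm subunit placed where complex I meets complex III, had signals of 1041.5, 989, 479.6 and 254.5. It was low on both FOXO1 arrays, 2.06-fold below GFP FSH with FOXOA3 and 3.89-fold below it with the mutant. FOXOA3 FSH was also 2.17-fold below GFP vehicle. Ndufa5 and Ndufa11 were the only complex I genes past 2-fold in the latter pair. Ndufb10, a disulfide-bonded subunit on the intermembrane side, had signals of 1020.4, 1212, 676.5 and 295 and the lowest complex I ratio on the mutant array, 4.11-fold below GFP FSH. FOXOA3 FSH lay between GFP FSH and the mutant, 2.29-fold above the latter as deposited and under 2-fold in the other scalings.

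Several accessory subunits were low on the mutant array alone. Ndufa2, a subunit with a thioredoxin-like fold in the NADH-oxidizing part, had signals of 2078, 2273, 1698 and 773 and was 2.94-fold lower than on GFP FSH. Ndufa7, a peripheral arm subunit, had signals of 3881, 3115.5, 3315 and 1031 on its brightest probe set, 3.02-fold lower. The second Ndufa7 probe set read 433.1, 263.2, 754.4 and 448.6, a log2 ratio of 0.77 in that comparison against -1.59, so this gene's direction depends on the probe set. Ndufb2 of the membrane arm had signals of 3117, 2313, 2531 and 1088, with a mutant array 2.13-fold below GFP FSH. Ndufv3, a small subunit bound to the flavin-bearing head, had signals of 719.5, 541, 514 and 256 and was 2.11-fold lower. In each of these genes FOXOA3 FSH was at least 2-fold above the mutant array, although Ndufa2 and Ndufv3 lost that call under other scalings, and Ndufv3 its call against GFP FSH under all 3.

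Ndufa13, also known as the cell death regulator GRIM-19, had signals of 3270.2, 3094, 2793 and 1529 and was 2.02-fold lower on the mutant array than on GFP FSH. Ndufb5 of the membrane arm had signals of 8978, 8008, 5510.3 and 3829, with the GFP arrays above both FOXO1 arrays and the mutant 2.09-fold below GFP FSH. Ndufc1, another membrane arm subunit, had signals of 937, 1514, 868 and 694, highest on GFP FSH and 2.18-fold lower on the mutant array. These folds are near the threshold, and each of these genes passed it under at most 1 of the 3 other scalings.

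2 further subunits passed the threshold only between the FOXO1 arrays. Ndufb1 had signals of 1368, 1284, 2179 and 677, high on FOXOA3 FSH and 3.22-fold above the mutant array. Ndufs4, an accessory subunit whose loss causes Leigh syndrome, had signals of 1489.5, 989, 1205 and 551, highest on GFP vehicle, with FOXOA3 FSH 2.19-fold above the mutant as deposited only. Ndufa6, which anchors the acyl carrier protein Ndufab1 to the complex, had the lowest complex I ratio with FSH, -0.68 on the log2 scale, from signals of 2566, 1603, 1557 and 1273. The brightest complex I probe set, that of the membrane subunit Ndufa1, barely moved, with signals of 8850.1, 9753, 9399.7 and 10188.

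**Figure D4:**
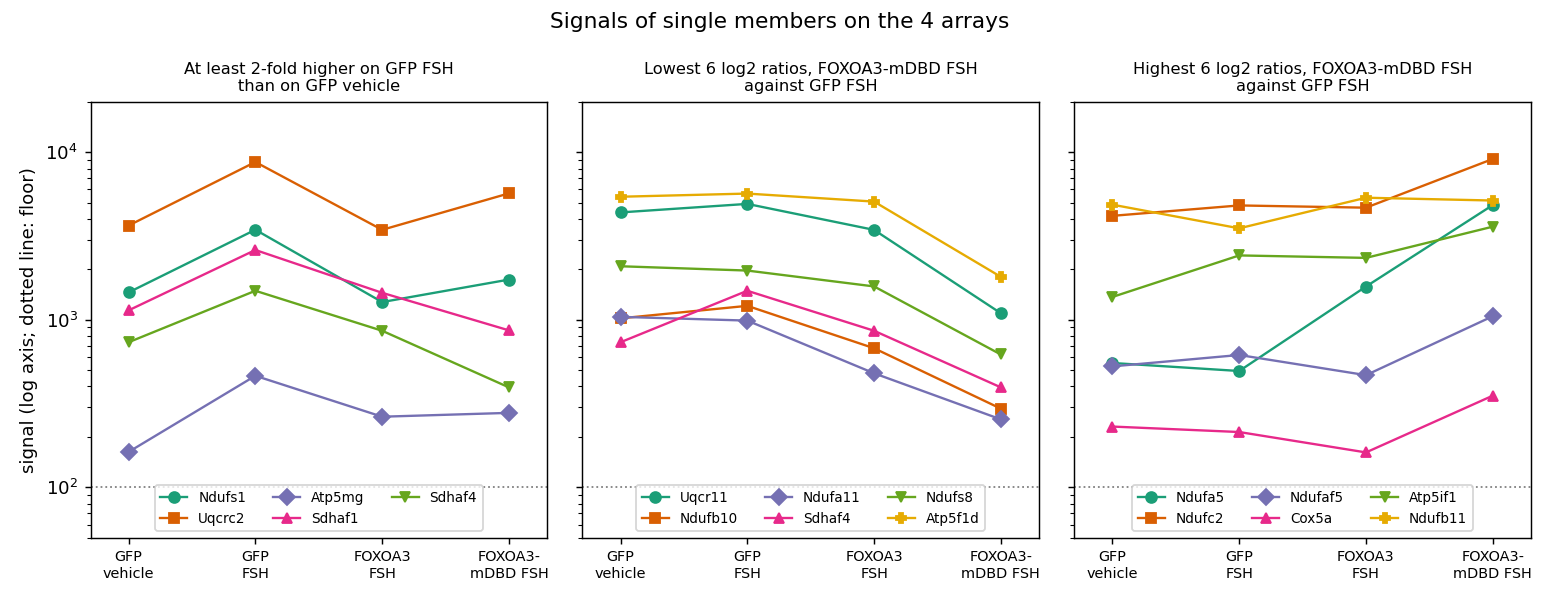
Signals of single members on the 4 arrays on a log axis, with the floor dotted. The left panel shows the 5 members at least 2-fold higher with FSH, the middle panel the 6 lowest and the right panel the 6 highest in FOXOA3-mDBD FSH against GFP FSH. Ndufa5 goes from 495 on GFP FSH to 4841 on the mutant array, and the 6 lowest all have their minimum there.

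Complex II, succinate dehydrogenase, joins the respiratory chain to the tricarboxylic acid cycle and is made wholly from nuclear genes. All 4 subunits stayed within 2-fold in every comparison. Sdha, the flavoprotein that oxidizes succinate, had signals of 5703, 7114.5, 4686 and 6030.5. The iron-sulfur subunit Sdhb had signals of 4547, 5299, 4530.5 and 3820.5, and the membrane anchor Sdhd 5049.5, 6580.0, 4972 and 5371. Each of these 3 was highest on GFP FSH, by log2 ratios over GFP vehicle of 0.32, 0.22 and 0.38. Sdhc, the other membrane anchor, went the other way at -0.51, with signals of 5769, 4048, 4508 and 3106 that were highest on GFP vehicle and lowest on the mutant array. Sdhc had the highest complex II ratio on FOXOA3 FSH against GFP FSH (0.15) and Sdha the lowest (-0.60). On the mutant array against GFP FSH the highest and lowest were Sdha (-0.24) and Sdhb (-0.47).

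Complex III hands electrons from ubiquinol to cytochrome c. Uqcrc2, a core subunit of its matrix face, had signals of 3652, 8748.5, 3444 and 5684. GFP FSH was the highest array, 2.40-fold above GFP vehicle, and FOXOA3 FSH was 2.54-fold below it. The mutant array lay between, 1.54-fold below GFP FSH. A second, dim Uqcrc2 probe set read 153.4, 190.8, 110.9 and 169.1, in the same directions with log2 ratios of 0.32 with FSH and -0.78 with FOXOA3, against 1.26 and -1.34. Its partner Uqcrc1 had signals of 5574, 5231.5, 5228 and 3073, level on the first 3 arrays and 1.70-fold lower on the mutant array than on GFP FSH. The Rieske iron-sulfur protein Uqcrfs1 had signals of 5486.5, 6303, 5353 and 4676, the smallest difference of complex III in the mutant comparison.

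The 4 small accessory subunits of complex III among the members had a median log2 ratio of -1.30 on the mutant array against GFP FSH. Probe sets with several symbols were not used, so this set is partial. That of the 3 core subunits was -0.62, and the ranges overlapped. Uqcr11, the smallest subunit, had signals of 4375, 4918.5, 3442 and 1094.5 and was 4.49-fold below GFP FSH, the lowest ratio of any member in that comparison. FOXOA3 FSH was 3.14-fold above the mutant. Uqcrq, a membrane-spanning subunit near cytochrome b, had signals of 2928, 3908, 2739.7 and 1574 and was 2.48-fold lower on the mutant array. Uqcr10, which lies close to cytochrome c1, had signals of 2981, 3780.2, 1711 and 1543 and was low on both FOXO1 arrays, 2.21-fold and 2.45-fold below GFP FSH. The hinge protein Uqcrh, which helps cytochrome c dock, had the highest signals of the complex III members, 8567, 11889, 8658 and 7768, and stayed within 2-fold.

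Complex IV, cytochrome c oxidase, has a catalytic core made in the mitochondrion and a ring of nuclear subunits, several in tissue isoforms. The isoforms known from liver and most other tissues were bright, and those of muscle, testis, lung or hypoxic cells were below the floor. Cox4i1 had signals of 3880.2, 4436, 3385 and 5555 and Cox4i2, the lung and hypoxia isoform, of 59.0, 13.6, 29.3 and 9.7. Cox6a1 had signals of 5308, 7309, 4831 and 3442 and the heart and muscle isoform Cox6a2 of 10.4, 8.1, 13.1 and 31.0. Cox6b1 had signals of 4582.5, 6534, 4769 and 2784 and the testis isoform Cox6b2 of 31.2, 57.8, 32.3 and 46.2. In each of these pairs the first isoform was far above the floor on every array and the second below it on every array. The muscle isoforms Cox7a1, with 79.5, 87.8, 77.3 and 12.3, and Cox8b, with 3.0, 3.3, 6.0 and 4.1, were below the floor too, as were the testis isoform Cox7b2, with 25.0, 41.5, 45.4 and 23.1, and Ndufa4l2, a hypoxia-induced relative of Ndufa4, with 49.7, 10.7, 5.8 and 45.3. Their ubiquitous counterparts Cox8a, with 9436, 8817, 9554 and 4983, and Ndufa4, with 5395, 5333.5, 8125 and 4841, were bright. Values below the floor have no order among arrays.

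Of the 10 complex IV genes measured, 3 were at least 2-fold lower on the mutant array than on GFP FSH. The share of all measured genes was 19.1%. Cox7b, a small membrane subunit, had signals of 1324, 2516, 958 and 907. GFP FSH was highest, 1.90-fold above GFP vehicle, and both FOXO1 arrays were lowest, 2.63-fold and 2.77-fold below GFP FSH. Cox6b1, which bridges the dimer on the intermembrane side, and Cox6a1 were 2.35-fold and 2.12-fold lower on the mutant array and within 2-fold elsewhere. Cox5a, a subunit on the matrix side, had signals of 231, 214, 162 and 352.5 on its single-symbol probe set, which need not stand for the gene's level, and was 2.18-fold lower on FOXOA3 FSH than on the mutant array. It had the highest ratio of complex IV on the mutant array against GFP FSH, 0.72. Cox6c, the brightest complex IV member with signals of 8575, 9933, 9175 and 13836.5, was highest on the mutant array too. Cox7c, with 7833, 13112, 8329.8 and 10485.5, was highest on GFP FSH. Ndufa4, once assigned to complex I, had the highest complex IV ratio with FOXOA3, 0.61. With FSH the lowest complex IV ratio was that of Cox5a, -0.11.

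The catalytic subunits made in the mitochondrion fall outside the rule. Probe sets annotated COX1 and COX2, taken for these by their symbols alone, were read after the members' values had been seen. COX1 signals were 17135, 27870.5, 15885 and 29599. COX2 signals were 10458, 20621, 8882 and 23703. Both were high on the arrays that held the poly-A spikes and low on the others. COX1 and COX2 were 1.63-fold and 1.97-fold higher on GFP FSH than on GFP vehicle, 1.75-fold and 2.32-fold lower on FOXOA3 FSH than on GFP FSH, and 1.06-fold and 1.15-fold higher on the mutant array than on GFP FSH. Among the members, 21 of 82 (25.6%) were higher on both spike-bearing arrays than on both others, against 18.0% of 8114 genes. Another 9 (11.0%) were lower on both, against 24.4%. For 0 members were both at least 2-fold above both others.

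ATP synthase consists of a catalytic head in the matrix, a rotating central shaft, a peripheral stalk and a membrane part with the proton-driven ring. The 5 genes of the head and shaft split on the mutant array. Atp5f1a and Atp5f1b, the alpha and beta subunits that form the head, had signals of 8195, 9208, 7948 and 9144 and of 14267, 17818.5, 13664 and 13872. Neither differed by 2-fold, and their log2 ratios on the mutant array against GFP FSH were -0.01 and -0.36. The shaft subunits were all about 3-fold lower there. Atp5f1c, the gamma subunit, had signals of 9321, 13074, 6389.5 and 4476 and was 2.92-fold lower on the mutant array and 2.05-fold lower on FOXOA3 FSH than on GFP FSH, the latter under 2-fold after quantile normalization or loess correction. Atp5f1d, the delta subunit, had signals of 5426.5, 5668, 5077 and 1805, with 3 arrays alike and the mutant 3.14-fold below GFP FSH. Atp5f1e, the epsilon subunit, had signals of 4706, 5681, 3595 and 1883 and was 3.02-fold lower. FOXOA3 FSH was 2.81-fold above the mutant for Atp5f1d.

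In the peripheral stalk, Atp5po, which ties the stalk to the head, had signals of 5426, 8764, 4918 and 2982 and was 2.94-fold lower on the mutant array than on GFP FSH. Atp5pf, coupling factor F6, had signals of 5200.5, 6867, 4914 and 3149.6 and was 2.18-fold lower. Their partner Atp5pb, the long b subunit, was not low there, with signals of 6766.5, 7845, 6902 and 9949 and a log2 ratio of 0.34, the highest of complex V. In the membrane part, Atp5me, a subunit at the dimer interface, had signals of 2404, 2864, 1725 and 989 and was 2.90-fold lower. Atp5mg, which also lies at that interface, had signals of 163, 463, 264 and 278, low for this family, and was 2.85-fold higher on GFP FSH than on GFP vehicle, the highest FSH ratio of any member. The mutant and FOXOA3 arrays lay between, 1.66-fold and 1.75-fold below GFP FSH. Atp5mc3, the c-ring gene read by a single-symbol probe set and the brightest of complex V, stayed within 2-fold at 12983.5, 16321, 13299.6 and 17751.5.

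Assembly factors insert clusters, flavin or whole modules, and 2 of those for complex II were among the members higher with FSH. Sdhaf1, which helps Sdhb gain its iron-sulfur clusters, had signals of 1139, 2610.3, 1449 and 865. GFP FSH was 2.29-fold above GFP vehicle, and the mutant array was the lowest, 3.02-fold below GFP FSH. Sdhaf4, a chaperone of flavin-bearing Sdha, had signals of 735, 1490.5, 860.2 and 395, with the same order of arrays at the top and bottom. It was 2.03-fold higher with FSH, 3.77-fold lower on the mutant array than on GFP FSH, and 2.18-fold higher on FOXOA3 FSH than on the mutant, the last as deposited only. Sdha and Sdhb themselves were within 2-fold in every comparison. Sdhaf2, which helps attach the flavin, had signals of 1197, 2017, 1539.6 and 1253, highest on GFP FSH, and Sdhaf3 had signals of 285, 271.5, 225 and 342.

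Ndufaf3 and Ndufaf4 act together early in complex I assembly and differed. Ndufaf3 had signals of 1013, 1474, 707 and 662, low on both FOXO1 arrays, 2.09-fold and 2.23-fold below GFP FSH. Ndufaf4 had signals of 1258, 1654, 2269 and 2391, higher on both FOXO1 arrays than on either GFP array, with log2 ratios to GFP FSH of 0.46 and 0.53. Ndufaf5, an enzyme that modifies Ndufs7, had signals of 527, 617, 467 and 1050.3, high on the mutant array, which was 1.70-fold above GFP FSH and 2.25-fold above FOXOA3 FSH. Atp5if1, the inhibitor that stops ATP synthase from running backward, had signals of 1369, 2423, 2342 and 3597, 1.77-fold higher with FSH and highest on the mutant array. Cox7a2l, which joins complexes III and IV in supercomplexes, was the brightest of this class at 5936, 7120.5, 4834 and 5126.5. The lowest FSH ratio of the class was that of Ndufaf1 (-0.19), an assembly factor of complex I. The pseudogene Cox6c-ps1 read 107, 90.5, 195 and 35.7, and FOXOA3 FSH was at least 1.94-fold above the floored signals of GFP FSH and of the mutant array.

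The agreement between probe sets of a gene gave a measure of how far a single reading can be relied on. Over 1703 genes with a second probe set above the floor on all arrays, the log2 ratios of both differed by a median of 0.34 for FSH against vehicle, 0.42 for FOXOA3 against GFP and 0.47 for the mutant against GFP. The difference was over 1 for 8.16%, 12.9% and 15.7% of these genes. Only 4 members had such a second probe set. For the mutant against GFP their differences ran from 0.14 to 2.36, with a median of 0.54. The widest was that of Ndufa7, 0.769 beside -1.595, with opposite signs. Sdhd gave 0.51 beside 0.38 with FSH, and Ndufv3 gave -0.44 beside -1.08 on the mutant array.

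Of the 90 members, 82 had a promoter entry, a window from 250 bases before to 50 after the transcript start. The 8 with no entry were Atp5pd, Cox4i2, Cox6a1, Cox6c, Cox6c-ps1, Ndufa8, Ndufb9 and Uqcr11. Both strands were searched for GCATGCGC (NRF1, a regulator of respiratory genes), CCGGAAG (ETS factors such as GABP), ATGGCGG (YY1) and GTAAACA (FOXO factors), and matches of different motifs could overlap. GCATGCGC was found in 9 member promoters (11.0%), against 4.29% of the 11700 promoters of genes on the array and 2.66% of all 27457. CCGGAAG was found in 25 (30.5%), against 15.1% and 9.22%. ATGGCGG was found in 18 (22.0%), against 8.50% and 5.22%. GTAAACA was found in 1 (1.22%), against 2.46% and 3.76%. These are counts of letters in a short window and not of bound sites.

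At least 1 match to the NRF1, ETS or YY1 motif was found in 37 of the 82 member promoters. Among the 11700 promoters of genes on the array, 2870 held such a match. Uqcrc2 and Ndufs1, whose promoters are printed, are among the 37, and the whole Ndufs1 window also holds an ETS match. Of the 24 members at least 2-fold lower on the mutant array that had an entry, 3 held GCATGCGC, 7 CCGGAAG, 4 ATGGCGG and 0 GTAAACA. Of the 58 other members the counts were 6, 18, 14 and 1. In percent, CCGGAAG was in 29.2% of the former and 31.0% of the latter.

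Further genes of the same pathway were read from lists of other mitochondrial genes. Assembly factors outside the rule had a median log2 ratio of 0.31 with FSH over 29 measured genes, -0.40 with FOXOA3 and -0.48 with the mutant, and 4, 0 and 0 of them were at least 2-fold higher and 0, 3 and 6 lower. Tmem126a, a complex I assembly factor, had signals of 1713, 4296, 1866 and 1222, highest on GFP FSH. Oxa1l, which inserts proteins into the inner membrane, had the lowest ratio of the list on the mutant array, -2.09. The 73 mitochondrial ribosomal proteins, which serve to translate the mitochondrially encoded subunits, had medians of 0.28, -0.34 and -0.49 in the same comparisons. Of these 3 were higher and 1 lower with FSH, 0 and 4 with FOXOA3, and 0 and 17 with the mutant, with Mrps16 the lowest at -2.22. All measured genes had medians of -0.00, 0.04 and -0.16, and the shares of all genes higher and lower were 6.84% and 11.1%, 11.1% and 6.99%, and 12.5% and 19.1%. The lower counts on the mutant array, 17 of 73 and 6 of 29, are near that last share. Both lists had 0 genes past 2-fold between FOXOA3 FSH and GFP vehicle. Of the 9904 genes measured in that pair, 5.32% were higher and 4.01% lower.

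Among the 12 measured enzymes of the tricarboxylic acid cycle, which feeds the chain with NADH and succinate, 0 differed by 2-fold with FSH and the median was 0.16. On FOXOA3 FSH 1 was higher and 2 lower, and on the mutant array 1 higher and 4 lower, with medians of -0.40 and -0.77. With so few genes these counts are no more than a description beside the shares of all genes just given, as are those of the next lists. Dlst was the higher gene in both (1.16 and 1.56), and Ogdh, its partner in the oxoglutarate dehydrogenase complex, the lowest on the mutant array (-1.65). Of 13 carriers and channels, Slc25a5, an exchanger of ADP for ATP, was the only gene at least 2-fold higher with FSH, with signals of 7982, 19396.5, 9581 and 11923. The medians of this list were 0.29, -0.39 and -0.45, with 0 lower with FSH, 1 higher and 2 lower on FOXOA3 FSH, and 2 higher and 2 lower on the mutant array. The 18 genes of electron carriers and quinone synthesis had medians of 0.32, -0.23 and -0.26, with 1 and 1, 1 and 1, and 1 and 2 genes at least 2-fold higher and lower.

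Regulators of mitochondrial biogenesis had medians near 0 (-0.17 with FSH, -0.12 with FOXOA3 and 0.04 with the mutant). Nrf1, which drives many respiratory genes, had signals of 1066, 603.1, 1669 and 1689.8, lowest on GFP FSH. Its log2 ratio was 1.47 on FOXOA3 FSH and 1.49 on the mutant array, and it was the only regulator at least 2-fold higher in the former, with 0 lower. On the mutant array 3 regulators were higher and 3 lower, among them Myc at 1.33 and Gabpa, an ETS factor, at -1.08. With FSH 1 was higher and 0 lower. Tfam, which packs and transcribes mitochondrial DNA, had signals of 2357, 2312.5, 2286 and 3711. The coactivator Ppargc1a was below the floor on all 4 arrays.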

How the data were processed

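Total RNA of granulosa cells had been hybridised to 4 Affymetrix rat arrays, 1 per group. The deposited numbers are linear probe set intensities that the authors obtained with MAS5, per the submitters' processing notes, which state neither version nor settings. MAS5 subtracts mismatch signal and scales each array to a common mean, which hides any difference in total RNA, and dim probe sets give unsteady ratios.

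Of 31099 probe sets, 57 were controls. The platform annotation gave 1 symbol for 20826, several for 436 and none for 9780. Of single-symbol probe sets 99.7% matched a current rat gene table, and all 90 members kept their symbols. Another 7 probe sets of these families carried several symbols and were not used. Signals under the floor of 100.5 were raised to it, a gene was measured in a comparison if its higher signal exceeded the floor, and differences are log2 ratios or folds on that scale. A fold of 2 was the threshold, and its share over all measured genes was computed the same way. With 1 array per group no test was run, and the number of arrays limits the precision.

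The members, gene lists and comparisons were chosen with earlier results of these data known. Members past 2-fold in any comparison, the extremes and brightest of each complex, and the complex IV isoforms were named, and from the other lists at most 4 genes per comparison past 2-fold. Values for Ndufaf4, Sdhaf2, Sdhaf3, COX1, COX2, Nrf1, Tfam and Ppargc1a, the subsets within complexes, the counts by array and spike state, and the promoter motifs were added after values had been seen. Promoters came from RefSeq (GRCr8). Alternatives were the floor, the filter on low signals, quantile, median and loess scaling, the mean over probe sets and a fold of 1.5. Python 3.11.15, numpy 2.4.6, pandas 2.3.3, statsmodels 0.14.6 and matplotlib 3.10.9 were used, and the steps were tested on simulated data.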

Additional observations from a re-analysis of the deposited data

How the results depend on the processing

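No array could be left out, since each group had 1. No paired analysis was possible because each group had 1 array and no group shared more than 1 replicate number with another. The member median kept its sign in all 5 comparisons under every alternative run, although it came near 0 in several. For GFP FSH against GFP vehicle it was 0.24 as reported, 0.101 after quantile normalization and 0.056 after loess correction. For FOXOA3 FSH against GFP FSH it was -0.40, then -0.216 and -0.164. For FOXOA3-mDBD FSH against GFP FSH it was -0.65, and it was -0.475 with no filter, -0.482 when centred on all genes and -0.475 with the mean of probe sets. For FOXOA3 against its mutant it was 0.25, and 0.05 when centred, 0.303 after quantile normalization and 0.298 after loess correction. Centring also left 17 of the 26 lower members and gave 2 higher ones for the mutant against GFP FSH. Of 9748 measured genes, 1465 were then lower and 1517 higher. For FOXOA3 against the mutant, centring gave 6 higher and 5 lower members, and 1315 higher and 1319 lower of 10092 genes. All 17 lower members were among the 26, as were the 23 under quantile normalization and the 22 under loess correction. The lower genes in these 2 scalings were 1785 of 9911 and 1355 of 9748. Loess correction gave 3 higher members for the mutant, where 1573 of 9748 genes were higher. For FOXOA3 against GFP FSH, 6 of the 7 lower members stayed past 2-fold under quantile normalization and loess correction, without Atp5f1c, and Ndufb8 joined them in both. With the mean of probe sets, the higher members numbered 2 for FOXOA3 and 2 for the mutant, each against GFP FSH, and 3 for FOXOA3 FSH against GFP vehicle. The higher genes were 982 of 9311, 1184 of 9104 and 483 of 9271. The floor at the 25th percentile gave 1 lower member with FSH, 2 higher ones for FOXOA3 against GFP FSH, and 2 lower ones for FOXOA3 FSH against GFP vehicle. Over all measured genes these counts were 1564 of 12434, 1981 of 12722 and 609 of 12612. At a fold of 1.5 the higher and lower members were 15 and 2 with FSH, 5 and 20 for FOXOA3 and 4 and 44 for the mutant against GFP FSH, 28 and 11 between the FOXO1 arrays, and 7 and 6 for FOXOA3 FSH against GFP vehicle. Members measured were 82 for the mutant and 83 elsewhere. All genes gave, in that order, 1700 and 2074 of 9578, 2240 and 1795 of 9941, 2113 and 3206 of 9748, 3397 and 1818 of 10092, and 1259 and 1117 of 9904. The 15 with FSH and the 28 between the FOXO1 arrays are near the all-gene shares. The cause of these shifts was not tested, beyond the smaller threshold itself. Signals of the 82 members above the floor on all arrays do not depend on it, and the 7 silent isoforms have only an upper bound.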
